A study of Mus musculus with 6 samples.

Results

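Hepatic stellate cell, collagen and matrix genes were followed in the livers of mice with an albumin-Cre knockout of Keap1 and of their controls. The set is a list of 38 gene symbols, put together by function and cell type with earlier results of these data known. Each gene was read from its brightest probe set, the one with the highest mean log2(signal + 16) over the 6 arrays. All 38 had a probe set of their own among the 18193 genes on the array. Of these, 36 passed the filter on low signal and were tested among 13027 genes, while Lama4 and Timp1 were too dim.

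KEAP1 is the adaptor that marks the stress-response factor NRF2 for degradation. The arrays measured 3 mice of each group, 1 mouse per array, all male and 9 weeks old. The knockouts carried Alb-Cre with Keap1(flox/-), and the controls carried Alb-Cre with Keap1(flox/+). Both groups thus had Cre driven by the albumin promoter, which is active in hepatocytes, and a floxed allele, and they differed in the allele opposite it. That minus allele does not depend on Cre and is present in stellate cells too, where the floxed allele is not the target of an albumin-driven Cre. All mice had received only the vehicle of 10% DMSO, 10% Cremophor-EL and 80% PBS. The titles of the control arrays also call them wild type, although these mice carry Cre and a floxed allele.

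Hepatic stellate cells lie between the sinusoidal endothelium and the hepatocytes and store vitamin A as retinyl esters. When the liver is injured they can turn into contractile myofibroblasts that lay down fibrillar collagen, a change driven by TGF-beta and platelet-derived growth factors. Portal fibroblasts and vascular smooth muscle make many of the same proteins, and hepatocytes themselves secrete fibronectin and the collagen that yields endostatin.

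The labels and the tissue were checked first. The Keap1 signal averaged 230 ± 88.6 over 3 knockouts and 776 ± 72.1 over 3 controls (SD), and its groups did not overlap (limma adjusted p = 0.0118). The position of that probe set relative to the floxed exons was not checked. Albumin, the main hepatocyte product, had signals of 25933 to 28702 in the knockouts and 22569 to 25027 in the controls. Its groups did not overlap, with a log2 difference of 0.20 that did not pass (limma adjusted p = 0.341). RNA quality, judged from the actin signal at the 3′ end over that at the 5′ end, lay between 1.54 and 1.90. The highest ratios were 1.90 in control 2 and 1.85 in knockout 5, while controls 1 and 3 had 1.58 and 1.54. Whether this ratio bears on the signals of control 2 was not tested.

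Promoter sequence was read for the member that passed the test, Col5a3, and for Acta2, the usual marker of the myofibroblast, because a single mouse stood far above the others there. Both stretches are the 250 bases before the RefSeq start in GRCm38.p6, on the strand of the gene. For Col5a3 this is chr9:20815068-20815317, minus strand, with the CCAAT match in capitals. For Acta2 it is chr19:34255374-34255623, minus strand, with the CArG box matches in capitals.
Col5a3: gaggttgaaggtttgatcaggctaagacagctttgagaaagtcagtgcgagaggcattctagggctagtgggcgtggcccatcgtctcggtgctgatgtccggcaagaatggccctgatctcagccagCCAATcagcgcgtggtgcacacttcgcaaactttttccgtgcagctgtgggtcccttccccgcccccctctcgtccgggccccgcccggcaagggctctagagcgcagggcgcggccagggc
Acta2: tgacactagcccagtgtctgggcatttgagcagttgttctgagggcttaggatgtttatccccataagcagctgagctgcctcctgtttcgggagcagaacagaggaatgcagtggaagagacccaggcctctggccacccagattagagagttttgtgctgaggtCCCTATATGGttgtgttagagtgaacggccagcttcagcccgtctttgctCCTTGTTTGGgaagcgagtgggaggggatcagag

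CCAAT, the sequence bound by NF-Y, lay 122 to 118 bases before the Col5a3 start. Both strands were searched, and CCAAT was found in the same window of 37.5% of 27025 genes and of 11 of the 27 members with a window (40.7%). The GC box GGGCGG matched at 2 places in the Col5a3 window, on the opposite strand. It was present in 35.4% of all genes and in 17 of 27 members (63.0%). The CArG box, bound by serum response factor in smooth muscle genes, was searched by its consensus with at most 1 base outside it. In Acta2 it matched 84 to 75 and 34 to 25 bases before the start, and it was found in 21.1% of all genes and 9 of 27 members (33.3%). The antioxidant response element core TGACNNNGC, through which NRF2 acts with small Maf proteins, was in 11.5% of all genes and in 4 of 27 members (14.8%). Those were Tgfbr2, Col4a2, Col6a2 and Timp2, none of which passed the test. These counts describe letters in a window, and no binding was measured. Members without a window in the RefSeq table were Col14a1, Col1a1, Col5a2, Dcn, Fn1, Lama4, Loxl1, Lum, Mmp2, Pdgfrb and Tagln.

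Of the 36 tested members 1 passed the threshold, Col5a3, which fell, and 0 rose. The test was limma over all 13027 genes with Benjamini-Hochberg adjustment, and a gene that passed at 0.05 is said to rise or fall. Among all genes 1.98% passed, 1.04% higher and 0.944% lower, so the members' share of 2.78% was near the background. An unadjusted p under 0.05 was reached by 8 members (22.2%), 4 higher and 4 lower, against 15.2% of all genes. The groups did not overlap in 8 members, again 4 higher and 4 lower, or 22.2%, and in 21.3% of all genes (10.3% higher and 10.9% lower). The median log2 difference of the members, knockout minus control, was -0.12, beside -0.02 over all genes, and 22 of 36 members (61.1%) lay below the controls, against 52.8% of all genes. Scaled on hybridisation controls, 30 of 36 members lay below and their median was -0.29, with the median of all genes at -0.18. The share of all genes below the controls under that scaling was not counted, so the 30 members have no background share beside them. Without 1 array the members' median ranged from -0.23 (control 1) to -0.06 (knockout 4), and it was -0.21 without knockout 5. Over all alternatives 18 of the 36 members kept their sign and 18 changed it at least once. In bulk RNA fewer cells of a type and less RNA per cell cannot be told apart.

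**Figure D1:**
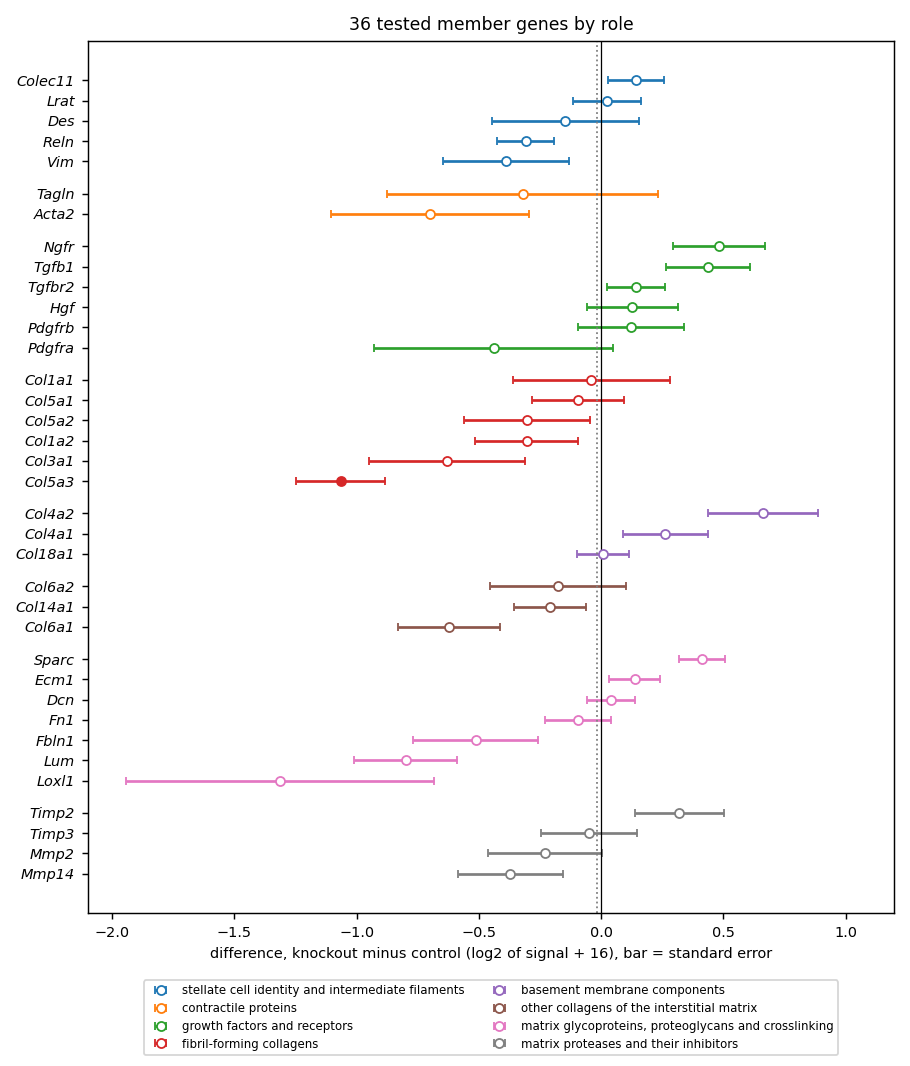
Log2 difference between 3 knockout and 3 control livers for each of the 36 tested members, coloured by role, with its standard error. The solid line marks 0, the dotted line the median of all genes (-0.02), and the filled point is the member that passed the threshold, Col5a3 at -1.07.

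Fibril-forming collagens were the role that held the change. These chains build the banded fibres of scar and of portal tracts. All 6 tested lay below the controls with a median of -0.30, which kept its sign under quantile normalization (-0.24), median centring (-0.25) and scaling on hybridisation controls (-0.47), and 1 passed. The median was -0.08 without knockout 4 and -0.20 without control 2. Col5a3 encodes the alpha 3 chain of type V collagen, a minor collagen that joins type I fibres. Its signal was 329.9, 266.0 and 349.7 in knockouts 3, 4 and 5, and 638.1, 559.3 and 853.4 in controls 1, 2 and 3. Every knockout was below every control, and the highest control was control 3. The means were 315 ± 43.7 and 684 ± 152 (SD, n = 3 each), a 2.09-fold lower level in the knockouts with a log2 difference of -1.07 and a standard error of 0.18 (limma adjusted p = 0.0250). The call was lost without every array other than control 2 (adjusted p = 0.0810, 0.0666 and 0.0547 without knockouts 3, 4 and 5, and 0.0734 and 0.0583 without controls 1 and 3) and without the variance trend (0.0751). Over those settings the difference stayed between -1.14 and -0.90.

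The other fibril-forming chains did not pass. Col1a1, the alpha 1 chain of type I collagen and the usual measure of fibrosis, had signals of 134.9, 88.0 and 88.2 in knockouts 3, 4 and 5 and of 76.2, 162.3 and 92.0 in controls 1, 2 and 3. The groups overlapped throughout, with knockout 3 and control 2 high. The difference was -0.04, with a 95% interval of -0.77 to 0.69 (limma adjusted p = 0.973), and its sign changed under quantile normalization (0.08) and median centring (0.01) and without control 2 (0.24), knockout 4 (0.05) or knockout 5 (0.05). Col1a2, its partner chain, had signals of 778.8, 431.2 and 573.4 in the knockouts and 638.4, 843.3 and 685.8 in the controls. Knockouts 4 and 5 lay below all controls and knockout 3 did not, for a difference of -0.30 with an interval of -0.78 to 0.17 (adjusted p = 0.537). It was -0.10 without knockout 4 and -0.19 without control 2.

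Col3a1, the chain of the reticular fibres of the liver, had signals of 756.8, 389.6 and 424.2 in the knockouts and of 637.7, 1252.0 and 599.7 in the controls. Control 2 stood far above the rest, and knockout 3 lay among the controls. The difference of -0.63, with an interval of -1.35 to 0.09 (limma adjusted p = 0.397), was -0.30 without control 2. Col5a1 and Col5a2, the main type V chains, differed by -0.09 and -0.30 (adjusted p = 0.868 and 0.631). Col5a1 was 0.03 without control 3, and Col5a2 was -0.05 without knockout 4. Type V collagen therefore had 1 of its 3 chains past the threshold, and whether the chains differed from each other in their response was not tested.

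**Figure D2:**
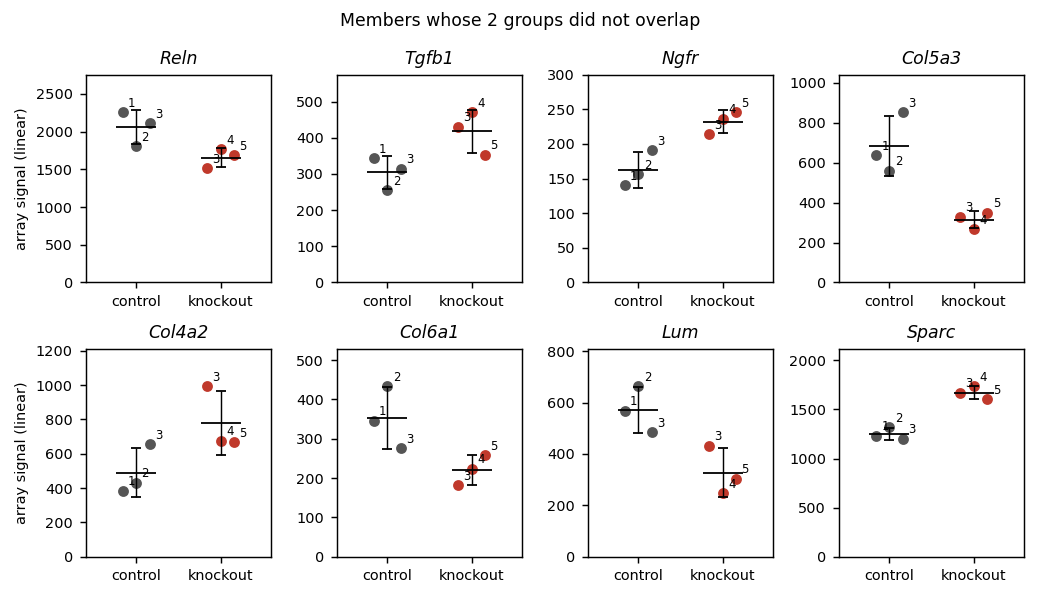
Linear array signal of the 8 members whose groups did not overlap, with each mouse labelled by its replicate number and the mean and SD of 3 mice in black. Reln, Col5a3, Col6a1 and Lum were lower in all 3 knockouts, and Tgfb1, Ngfr, Col4a2 and Sparc were higher.

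The tested basement membrane members lay at or above the controls. Type IV collagen forms the sheet-like network under endothelium and around nerves and ducts. Col4a2 had signals of 992.5, 676.5 and 667.0 in knockouts 3, 4 and 5 and 385.5, 430.6 and 654.4 in controls 1, 2 and 3. All knockouts were above all controls, though knockout 5 was only slightly above control 3. The level was 1.58-fold higher without passing (log2 difference 0.66, standard error 0.22, limma adjusted p = 0.202). Its partner chain Col4a1 had signals of 745.1, 804.0 and 829.0 against 500.9, 689.9 and 821.6, and control 3 lay among the knockouts (difference 0.26, adjusted p = 0.525). A further Col4a1 probe set did separate the groups, at 472 ± 88.3 against 322 ± 60.5, with a difference of 0.53 (limma adjusted p = 0.252 over all probe sets). The RefSeq starts of Col4a1 and Col4a2 lie 21 bases apart on opposite strands of chromosome 8, and by these coordinates the first bases of the transcripts overlap. Col18a1, whose product is cut to endostatin, had signals of 9667 to 12050 in the controls and 10125 to 10979 in the knockouts. Its difference was 0.01, with an interval of -0.23 to 0.25 and a standard error of 0.11. It was -0.16 after scaling on hybridisation controls. The laminin chain Lama4 was too dim for the test. Its brightest probe set had overlapping groups, at 39.7 to 90.6 in the knockouts against 49.9 to 103 in the controls, a difference of -0.40. Its other probe set, also too dim, differed by 0.11, so no direction can be given for the gene. The median of the 3 tested basement membrane members was 0.26, that of all 4 was 0.14 with no filter, and that of the 3 was 0.10 after scaling on hybridisation controls.

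The brightest probe sets of the remaining collagens lay below the controls without passing. Col6a1, a chain of the beaded filaments around cells, had signals of 182.0, 224.3 and 258.2 in the knockouts and 346.2, 433.2 and 275.7 in the controls. The groups did not overlap, and the difference was -0.62 (standard error 0.21, limma adjusted p = 0.199). Its partner Col6a2 had no such separation in its brightest probe set, at 449 ± 177 against 480 ± 34.2, with knockout 3 low at 248.2. The difference of -0.18 was 0.19 without that mouse and 0.38 averaged over probe sets, so no direction can be given for the gene. A further Col6a2 probe set ran the other way, at 211 ± 47.9 in the knockouts against 101 ± 3.69 in the controls (difference 0.93, adjusted p = 0.0969 over all probe sets). Col14a1, which coats fibrils, differed by -0.21 (adjusted p = 0.543).

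Stellate cell identity genes gave no call. Their median was -0.15 over 5 tested members, with 1 at an unadjusted p under 0.05. It was 0.04 when all probe sets of a gene were averaged. Lrat makes the retinyl esters that stellate cells store. Its signal was 610.0, 697.3 and 541.7 in knockouts 3, 4 and 5 and 538.7, 655.5 and 620.7 in controls 1, 2 and 3. The groups overlapped fully, and the difference was 0.02, with an interval of -0.29 to 0.34 (limma adjusted p = 0.962), or -0.14 after scaling on hybridisation controls. Reln, a secreted glycoprotein of quiescent stellate cells, was 1517.7, 1764.8 and 1684.4 in the knockouts and 2259.5, 1808.2 and 2110.6 in the controls. Each knockout lay below each control, with knockout 4 close to control 2, and the difference was -0.31 with a standard error of 0.12 (adjusted p = 0.245). Colec11, a collectin, differed by 0.14 (adjusted p = 0.607), or -0.02 after scaling on hybridisation controls. The intermediate filament Des was 146.3, 142.4 and 196.4 in the knockouts and 127.7, 152.0 and 290.6 in the controls, a difference of -0.15 (adjusted p = 0.873). It was 0.18 without control 3, the highest mouse, and 0.12 averaged over its probe sets. Vim, the intermediate filament of mesenchymal cells, differed by -0.39 (adjusted p = 0.521), or -0.11 without control 2, whose signal of 1359.2 was the highest. Further Vim probe sets differed by -0.04 and -0.40 (limma adjusted p = 0.964 and 0.542 over all probe sets).

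The contractile members were set apart by a single control mouse. Acta2, smooth muscle actin, had signals of 779.3, 454.9 and 683.9 in knockouts 3, 4 and 5 and of 639.5, 2142.1 and 778.7 in controls 1, 2 and 3. Apart from control 2 the groups overlapped. The difference of -0.70, with an interval of -1.62 to 0.22 (limma adjusted p = 0.457), was -0.17 without control 2. Tagln, the actin-binding protein SM22, followed the same mouse, with 165.5, 156.9 and 155.8 in the knockouts and 90.7, 613.8 and 140.2 in the controls. Its difference of -0.32 (adjusted p = 0.841) was 0.44 without control 2, so its direction rested on that mouse.

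**Figure D3:**
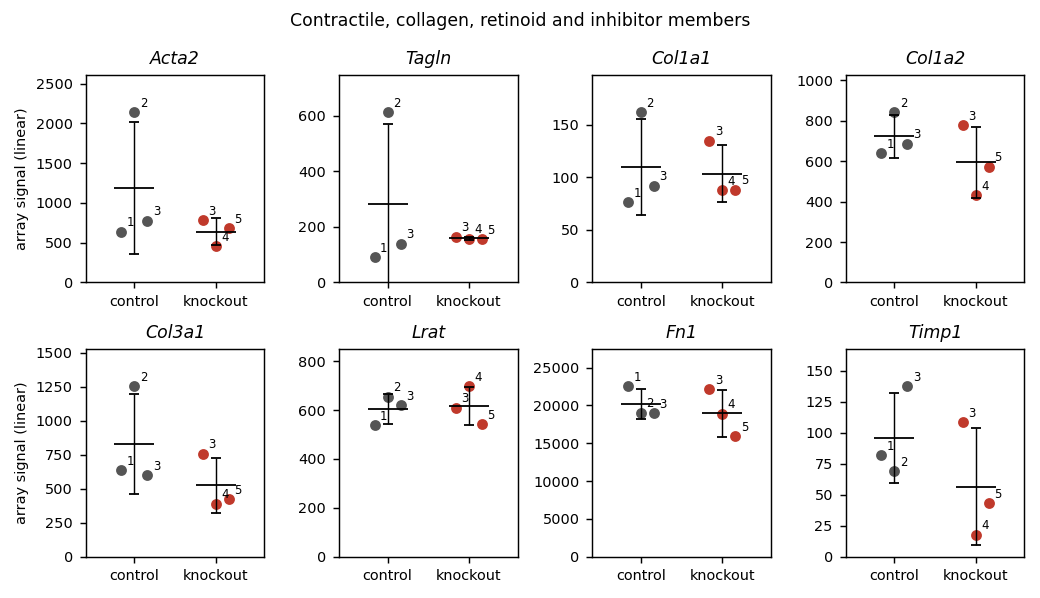
Linear array signal of 8 members in each mouse, labelled by replicate number, with the mean and SD of 3 mice in black (bars cut at 0). Control 2 is the highest control for Acta2, Tagln, Col1a1, Col1a2, Col3a1 and Lrat, while Timp1 was lowest in knockout 4, at 17.7.

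Growth factors and their receptors lay mostly above the controls, with 5 of 6 higher and a median of 0.14, which turned to -0.03 after scaling on hybridisation controls. No member of this role passed in limma, and 2 had an unadjusted p under 0.05. Tgfb1, the main profibrotic cytokine, had signals of 430.6, 471.4 and 353.7 in the knockouts and 343.8, 255.5 and 315.1 in the controls. All knockouts were above all controls, knockout 5 by a small margin over control 1, for a difference of 0.44 and a standard error of 0.17 (limma adjusted p = 0.267). Another Tgfb1 probe set differed by -0.12 (adjusted p = 0.843 over all probe sets). Ngfr, the low-affinity neurotrophin receptor found on stellate cells, had signals of 214.1, 236.2 and 246.1 in the knockouts and 140.2, 155.9 and 191.1 in the controls. Its groups were separate, with a difference of 0.48 and a standard error of 0.19 (adjusted p = 0.264). The TGF-beta receptor Tgfbr2 and the hepatocyte growth factor Hgf, which stellate cells secrete, differed by 0.14 and 0.13 (adjusted p = 0.617 and 0.805). Further Hgf probe sets separated the groups in opposite directions, at 0.38 and -0.42 (limma adjusted p = 0.535 and 0.542 over all probe sets). Averaged over its probe sets Hgf differed by 0.03, so no direction can be given for the gene. The receptor Pdgfrb, on stellate cells and pericytes, differed by 0.12 (adjusted p = 0.846). Tgfbr2, Hgf and Pdgfrb lay at -0.02, -0.04 and -0.04 after scaling on hybridisation controls. Pdgfra, the receptor of fibroblasts, differed by -0.44 (adjusted p = 0.730) but by 0.11 without knockout 4, where its signal was 41.1.

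Among glycoproteins, proteoglycans and crosslinking enzymes the members ran in both directions. Sparc, a collagen-binding matricellular protein, was 1670.7, 1735.1 and 1601.2 in the knockouts and 1231.4, 1317.3 and 1200.1 in the controls. Its groups were far apart for their spread, at 1669 ± 67.0 and 1250 ± 60.7, and the difference of 0.41 had the smallest standard error of all tested members, 0.10. It did not pass (limma adjusted p = 0.0726). A further Sparc probe set separated the groups the other way, at 924 ± 84.4 in the knockouts and 1147 ± 110 in the controls (difference -0.31, adjusted p = 0.301 over all probe sets). Averaged over its probe sets Sparc differed by -0.04, so no direction can be given for the gene.

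Lum encodes lumican, a proteoglycan that spaces collagen fibrils. Its signal was 431.2, 246.9 and 304.1 in the knockouts and 568.3, 662.9 and 483.9 in the controls. Each knockout lay below each control, and the difference was -0.80 (standard error 0.21, limma adjusted p = 0.108). It passed after scaling on hybridisation controls (adjusted p = 0.0422). Loxl1, a crosslinking enzyme of elastic fibres, had the largest difference of all tested members, -1.31, with the largest standard error, 0.63 (adjusted p = 0.370). Its signal in knockout 4 was 8.4, under the offset of 16, and the difference was -0.47 without that mouse. Fbln1, a fibulin, differed by -0.51 (adjusted p = 0.388). Fn1, fibronectin, was 22152.4, 18895.3 and 15952.0 in the knockouts and 22532.0, 19061.2 and 18980.2 in the controls. Those groups overlapped, and the difference was -0.10 with an interval of -0.40 to 0.21 (adjusted p = 0.797), or 0.02 without knockout 5. A dimmer Fn1 probe set was 490 ± 132 against 1178 ± 550, separate between the groups, at -1.18 (adjusted p = 0.111 over all probe sets). Dcn, decorin, differed by 0.04, with an interval of -0.19 to 0.26, and Ecm1, a secreted protein of quiescent stellate cells and hepatocytes, by 0.14 (adjusted p = 0.897 and 0.576). After scaling on hybridisation controls these were -0.12 and -0.03.

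Matrix proteases and their inhibitors gave no call and no unadjusted p under 0.05 in limma, with a median of -0.14 over 4 tested members that was 0.02 without control 2. The gelatinase Mmp2 differed by -0.23 and the membrane-bound Mmp14 by -0.37 (adjusted p = 0.697 and 0.456), and Mmp2 by only -0.05 without knockout 3. The inhibitors Timp2 and Timp3 differed by 0.32 and -0.05 (adjusted p = 0.448 and 0.940). Timp2 was -0.16 when its probe sets were averaged, and Timp3 was 0.17 without control 2. Timp1, the inhibitor that rises in injured liver, was too dim for the test, with signals of 108.7, 17.7 and 43.1 in the knockouts and 81.7, 69.1 and 137.4 in the controls. Its groups overlapped, and with no filter its difference was -0.79 (limma adjusted p = 0.563).

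Of 36 tested members 19 had more than 1 tested probe set. In 8 of these all tested probe sets had the same sign, and in 11 they did not. None of the 27 further probe sets passed in limma over 27022 probe sets. Unadjusted p-values under 0.05 among them were those of Fn1, Col6a2, Col4a1, Sparc and Tgfbr2. The further Tgfbr2 probe set differed by 0.90 (adjusted p = 0.317). The brightest probe set is thus 1 reading of a gene, and for 11 members, among them Sparc, Col6a2 and Hgf, another reading ran in the opposite direction.

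**Figure D4:**
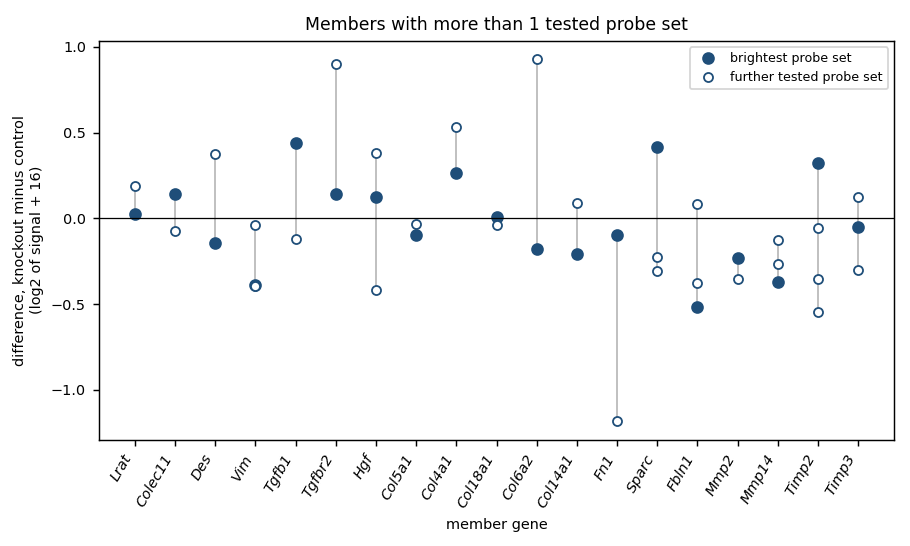
Log2 difference between knockouts and controls for every tested probe set of the 19 members with more than 1, the brightest filled and the others open, joined by a line per gene. Lines that cross 0 mark the 11 members whose probe sets differed in sign, among them Sparc (0.41 and -0.31) and Col6a2 (-0.18 and 0.93).

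Across the mice the members did not vary alike. Control 2 had the highest signal of the 6 arrays in 16 of 36 members (44.4%), against 15.98% of all genes. These were Acta2, Tagln, Vim, Pdgfra, Tgfbr2, Col1a1, Col1a2, Col3a1, Col5a2, Col6a1, Col14a1, Lum, Fbln1, Loxl1, Mmp14 and Timp3. Knockout 4 had the lowest signal in 12 members (33.3%), against 20.7% of all genes. Sample by sample, the median of the members relative to the control mean was 0.11 in control 2, -0.06 in control 3 and -0.16 in control 1, and -0.04, -0.20 and -0.05 in knockouts 3, 4 and 5. The knockouts thus lay within the range of the controls but for knockout 4.

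**Figure D5:**
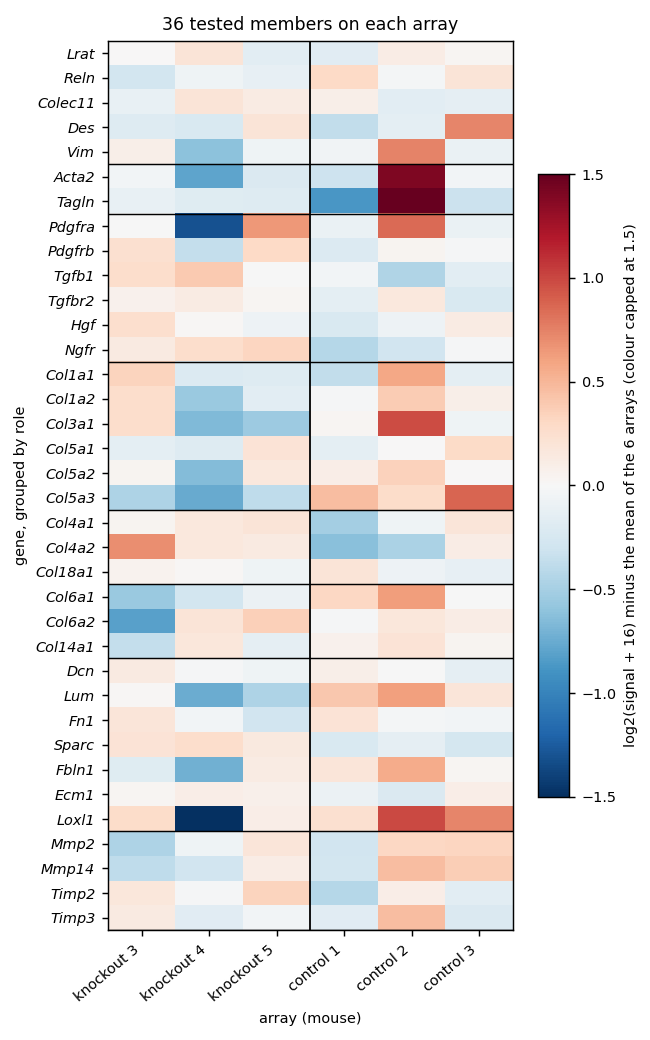
Each row is a tested member and each column a mouse; colour gives log2(signal + 16) minus the mean of the 6 arrays, capped at 1.5 in both directions. Control 2 is the highest array for 16 of 36 members, most deeply for Acta2 and Tagln, and knockout 4 the lowest for 12.

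The summed markers of 3 lists of other cells were highest in control 2 too, while single markers differed. The summed signal of 9 smooth muscle markers was 3850 in control 2, 2827 and 3223 in the other controls, and 2439 to 2908 in the knockouts. The sum of 7 bile duct markers was 1980 in control 2, 745 and 1319 in the other controls, and 742 to 975 in the knockouts. Of these 7, 3 were under the filter on low signal, and of the 4 tested only Krt7 was highest in control 2. The duct sum therefore does not show a rise of all duct markers in that mouse. The sum of 12 markers of portal fibroblasts and mesothelium was 2408 in control 2, 1516 and 1915 in the other controls, and 1293 to 1943 in the knockouts. Of these 12, 4 were under the filter. Dpt alone had a signal of 595.3 in control 2, beside 169.2 and 149.4 in controls 1 and 3. None of the markers in these 3 sums was listed at 0. Of those tested, Myh11, Mylk, Krt7, Thy1, Dpt and Upk1b were highest in control 2. Pln, Smtn, Epcam, Sox9 and Tspan8 were highest in control 3, and Entpd2, Eln, Fbln2, Gli1 and Clec3b in a knockout. Mylk alone had a signal of 2744.7 in control 2, within the muscle sum of 3850. The part of these markers in the differences of the contractile and collagen members was not tested. Among the 16 markers of these 3 lists that were tested, none passed in limma. An unadjusted p under 0.05 was reached by 3 of them, and by 15.2% of all genes. Those 3 were Pln, Mylk at -0.28 and Thy1 at -0.46 (limma adjusted p = 0.241, 0.254 and 0.307). In each, every knockout lay below every control, as in 10.9% of all genes. The largest differences were those of Pln at -0.56 and Myh11 at -0.34 in muscle (adjusted p = 0.241 and 0.866), of Epcam at -1.04 and Krt7 at -0.44 in ducts (0.541 and 0.654), and of Upk1b at -0.55 and Dpt at -0.48 in mesothelium and fibroblasts (0.537 and 0.772). Myh11, Krt7 and Dpt changed sign without control 2 (0.47, 0.01 and 0.12).

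The other lists of cell markers had 0 calls in limma too. An unadjusted p under 0.05 was reached by 3 of 14 sinusoidal endothelial, 2 of 13 macrophage and 2 of 11 hepatocyte markers. These shares are 21.4%, 15.4% and 18.2%, beside 15.2% of all genes. The endothelial sums were 13635 to 14383 in the knockouts and 13779 to 14320 in the controls. Those of macrophages were 17710 to 23245 and 12980 to 22408, and those of hepatocytes 224191 to 241169 and 194012 to 234598. The lowest macrophage sum was that of control 2. C1qa, C1qb, C1qc, Cd5l, Cd68, Adgre1, Clec4f, Csf1r, Lyz2, Marco and Vsig4 were lowest in control 2, as were 16.7% of all genes. Folr2 and Timd4 were lowest in control 3. Of the endothelial markers 9 of 14 lay below the controls, with a median of -0.05. The groups did not overlap in 5 of the 14 (35.7%), 3 higher and 2 lower. The 2 largest differences of this list were higher, Lyve1 at 1.29 and Stab1 at 0.38 (adjusted p = 0.108 and 0.273), while Fcgr2b was lower at -0.33 with separate groups (0.230). Of the macrophage markers 9 of 13 lay above the controls, led by Marco at 1.40 and Cd5l at 0.51 (0.111 and 0.293), and 1 of the 13 had separate groups (7.7%). Of the hepatocyte markers 8 of 11 lay above, with a median of 0.14. The 5 whose groups did not overlap (45.5%) were all higher, among them Hnf4a at 0.41 and Cps1 at 0.22 (limma adjusted p = 0.109 and 0.275). Among all genes the groups did not overlap in 21.3%, 10.3% higher and 10.9% lower. Fcgr2b, Hnf4a and Cps1 were picked after their values were seen. The 2 largest differences of the hepatocyte list were lower, Pck1 at -0.67 and Ass1 at -0.50 (0.507 and 0.469).

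A wider set of 6 lists of matrix and stellate genes outside the members held 191 genes with a probe set, of which 145 were tested. Of these 1 rose and 1 fell, or 1.38%, and the groups did not overlap in 25 (17.2%), so both shares lay under those of all genes. The gene that fell was Lama3, the alpha 3 chain of laminins of epithelial basement membranes. Its signal was 143.9, 141.1 and 169.7 in the knockouts and 330.3, 323.7 and 337.0 in the controls, with little spread within either group. The level was 2.07-fold lower (log2 difference -1.05, standard error 0.16, limma adjusted p = 0.0178). The call was lost without knockout 3 (0.0725) and without controls 1, 2 and 3 (0.0684, 0.0634 and 0.0540). The gene that rose was Nt5e, which encodes the ecto-5′-nucleotidase CD73 that makes adenosine outside cells. Its signal was 550.1, 817.6 and 386.6 in the knockouts and 219.5, 229.6 and 212.3 in the controls, 2.43-fold higher (adjusted p = 0.0349). Its call was lost without every array other than knockout 5, with no filter (0.0629) and without the variance trend (0.0993).

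The lists around these genes gave no other call. In further collagens 0 of 14 tested passed, and 1 had an unadjusted p under 0.05, Col4a5 at -0.84 (limma adjusted p = 0.319), beside Col2a1 at -0.61 (0.649). In collagen processing 0 of 17 passed and 1 had an unadjusted p under 0.05. That was P4ha1, a prolyl hydroxylase subunit needed for stable triple helices, at 0.61 (0.125), with signals of 401.5 to 597.5 against 317.7 to 341.9, and P3h1 stood at 0.31 (0.558). Of the further glycoproteins and basement membrane genes, Lama3 was the only 1 of 31 tested to pass. Of the further proteases and inhibitors 0 of 21 passed and 3 had an unadjusted p under 0.05. Reck, a membrane-anchored inhibitor of metalloproteinases, was 220.1, 301.6 and 239.4 in the knockouts and 507.8, 797.2 and 388.9 in the controls, separate between the groups (difference -1.06, limma adjusted p = 0.0794). Reck passed after scaling on hybridisation controls (0.0488) and without control 3 (0.0489). Ctsk, cathepsin K, differed by -1.24 (0.307).

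In TGF-beta, BMP and PDGF signalling 0 of 38 passed in limma, and 7 had an unadjusted p under 0.05 (18.4%, beside 15.2% of all genes). Below the controls lay 29 (76.3%, beside 52.8%), with a median of -0.12. The groups did not overlap in 11 (28.9%, beside 21.3%), 3 higher and 8 lower. Among the 8 was Itgav at -0.50 (limma adjusted p = 0.116), named after its values were seen. The largest differences of this list were those of the activin antagonist Fst at -0.91 and the activin subunit Inhba at -0.81 (adjusted p = 0.176 and 0.329). Of the ligands of the PDGF receptors, looked at after their values were seen, 3 were tested. Pdgfc was 553.5, 468.3 and 416.5 in the knockouts and 289.9, 243.8 and 305.1 in the controls, with a difference of 0.74 (limma adjusted p = 0.0592). Pdgfb was 217.9, 240.7 and 267.1 against 113.1, 200.1 and 126.3, with a difference of 0.70 (adjusted p = 0.200). In both every knockout lay above every control, while neither passed the threshold. Pdgfa was 246.6, 321.8 and 433.9 against 237.1, 403.8 and 428.7, with overlapping groups and a difference of -0.08 (adjusted p = 0.923). Of 24 further stellate cell genes Nt5e was the only 1 to pass, and 3 had an unadjusted p under 0.05 (12.5%), 2 higher and 1 lower.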

How the data were processed

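Liver RNA of 6 mice was hybridised to single-colour Affymetrix arrays of 45101 probe sets. The deposited values are linear array intensity, per the file headers 1 column per sample; on every array their mean was 500.0 once the bottom and top 2% were set aside, which shows scaling to 1 target before deposit. For the summarising software, the sources used here give no name. Groups and replicate numbers came from the sample titles. Names came from the platform's probe table, in which 34945 probe sets had 1 symbol. From the intensities log2(signal + 16) was computed. Probe sets at or above the 40th percentile of the mean log2 signal (27022) were kept, and each gene was read from its brightest one. The comparison used limma 3.58.1, run in R 4.3.3 (eBayes with trend, two-sided, Benjamini-Hochberg over 13027 genes, threshold 0.05); the steps were tested on simulated data. Fold differences are on the log2(signal + 16) scale, which understates dim genes. The members and lists were chosen with earlier results of these data known. Members are named by role; signals per array are given for members past the threshold, those whose groups do not overlap, and Acta2, Col1a1, Col1a2, Col3a1, Lrat, Tgfb1, Timp1 and Fn1, and other members with them where a single array decided the value. Of other lists, genes past the threshold are named, or the 2 with the largest difference. Alternatives were other filters, offsets, normalizations, variance models, probe set rules and leaving out each array with the filter and probe sets held. The number of arrays limits the precision; an exact permutation test of 3 mice against 3 cannot go below p = 0.1. Promoter windows are RefSeq's, build GRCm38.p6.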

Additional observations from a re-analysis of the deposited data

How the results depend on the processing

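Without 1 array the count over all genes, 258, fell to between 92 and 171, that of the members was 0 to 1, and that of the wider lists 0 to 2. Without the variance trend these counts were 77, 0 and 1, and with no filter the wider lists had 1 call. Scaling on hybridisation controls gave 2 member calls, Col5a3 and Lum, and a member median of -0.29, while it moved the median of all genes from -0.02 to -0.18. Col5a3 kept its sign in 16 of 16 settings and was called in 10. Of 36 tested members 18 changed sign in at least 1 setting, 8 of them after scaling on hybridisation controls (Lrat, Colec11, Pdgfrb, Tgfbr2, Hgf, Col18a1, Dcn and Ecm1). Among the genes given by the rule for named genes, signs turned for Col1a1 after quantile normalization (0.076) and median centring (0.0093), for Lrat after scaling on hybridisation controls (-0.14) and for Sparc when its probe sets were averaged (-0.039). Without 1 array Col1a1 ranged from -0.24 to 0.24, Lrat from -0.067 to 0.11, Fn1 from -0.21 to 0.024, Dpt from -0.93 to 0.14, Krt7 from -0.74 to 0.0053 and Myh11 from -0.97 to 0.47. The cause of these shifts was not tested. Of 581 settings of single named genes, 547 kept direction and side of the threshold. Testing each probe set on its own, chosen after seeing the data, gave 1 member, Col5a3. No paired analysis was possible because the groups share only the replicate number 3.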
